A study of Solanum lycopersicum with 2 samples.

Results

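The genes that make the oxidized and the reduced chains of suberin were followed through single cells of the tomato root. They were a pair of cytochrome P450 hydroxylases of the CYP86 family, SlCYP86A (Solyc01g094750) and SlCYP86B1 (Solyc02g014730), and a pair of fatty acyl-CoA reductases (FAR), SlFAR3A (Solyc06g074390) and Solyc11g067180. The study's text gives the name SlFAR3B to another reductase gene, Solyc11g067190. That identifier is not among the genes counted, so no reads were counted under it. Solyc11g067180 is therefore left under its identifier, and its values do not stand for SlFAR3B. Whether reads from Solyc11g067190 were counted under Solyc11g067180 was not tested. The 4 genes, of 34716 in the count tables, were taken by identifier from the study's suberin genes. The study had picked such genes partly on the same libraries, so a high level in suberizing cells is not independent evidence for the choice. The cells were protoplasts, that is, cells stripped of their walls by enzymes, from the last 3 cm, tip included, of pooled wild-type primary roots of cultivar M82 at 7 days. Both libraries, replicates 1 and 2, belonged to this 1 group, with no treatment, mutant or transgene. The study calls them biological replicates. The labels do not say whether they were grown apart. The main test below compares cell classes within each library. Its error is thus built on the spread of that difference between these 2 libraries, not on the spread of the levels. With so few sums, edgeR draws this spread for each gene toward a value shared over the genes tested. A very small p-value of 1 gene therefore does not measure the spread of that gene alone.

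Suberin is a water-repellent polyester laid down between the wall and the plasma membrane, in tomato roots chiefly in the exodermis, the outermost cortical layer. CYP86 enzymes oxidize the far end of a fatty acid, which yields the omega-hydroxy acids and, after further oxidation, the dicarboxylic acids that link the polyester. In Arabidopsis, enzymes of the CYP86A type act mainly on long chains and CYP86B1 on very long chains. FAR enzymes reduce acyl-CoA to primary alcohols, a further group of suberin monomers. SlASFT (Solyc03g097500), the aliphatic suberin feruloyl transferase, attaches ferulate to omega-hydroxy acids and fatty alcohols, and so uses products of both families. For this reason the levels of the 4 genes were set out in cells with and without a transcript of SlASFT.

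The guides with which the study edited these genes in hairy roots are shown as the designed sequences that the study lists for them. The same pair of guides was listed for SlCYP86A and for SlCYP86B1, so it cannot be told from the list which of them it was designed for. No guide for Solyc11g067180 was used here, and the libraries described below carry no edit.
SlFAR3A guide sg1: gagtctttagtgtatccctg
SlFAR3A guide sg2: gaacactcacatccctgggg
SlCYP86A and SlCYP86B1 guide sg1: gagagagaggggtagggggg
SlCYP86A and SlCYP86B1 guide sg2: ccaccgactcacagtggctc

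Transcripts were counted as UMIs (unique molecular identifiers), each of which tags the 3′ end of 1 captured transcript, so that gene length does not enter a comparison of levels between genes. Replicate 1 held 187215851 UMIs and replicate 2 held 81175339. After filtering, 12403 cells of replicate 1 and 10231 of replicate 2 remained, with a median of 8068 and 3801 UMIs per cell, and the 2 libraries shared 37 cell barcodes. An SlASFT UMI was found in 171 cells of replicate 1, a share of 1.38% (exact 95% interval 1.18% to 1.60%), and in 460 cells of replicate 2, a share of 4.50% (4.1% to 4.92%). Intervals here and below are exact, Clopper-Pearson for shares and Poisson for levels, and cover counting error only. SlASFT-positive cells were shallower, at medians of 3061 UMIs in replicate 1 and 2788 in replicate 2, against 8143 and 3837 UMIs in SlASFT-negative cells. A set of 20 exodermis markers, which the study chose on these libraries, summed to 1866 and 3410 CPM (UMIs per 1000000 UMIs) in SlASFT-positive cells of replicates 1 and 2, against 529 and 729 CPM in SlASFT-negative cells. In the 101 and 214 cells with a single SlASFT UMI the marker sum was 511 and 832 CPM, near that of SlASFT-negative cells.

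Both hydroxylase genes were higher in SlASFT-positive cells, SlCYP86B1 by a wider margin than SlCYP86A. SlCYP86B1 had 24.1 CPM in SlASFT-positive cells of replicate 1 (38 UMIs) and 63.2 CPM in those of replicate 2 (215 UMIs), against 0.0339 CPM (6 UMIs) and 0.123 CPM (9 UMIs) in SlASFT-negative cells. The level in SlASFT-positive cells was thus 710 times that in SlASFT-negative cells in replicate 1 (interval 298 to 2056) and 515 times in replicate 2 (266 to 1141). SlCYP86A had the lower level in SlASFT-positive cells and the higher level in SlASFT-negative cells. It had 5.07 CPM (8 UMIs) and 12.9 CPM (44 UMIs) in SlASFT-positive cells of replicates 1 and 2, against 0.203 CPM (36 UMIs) and 0.287 CPM (21 UMIs) in SlASFT-negative cells. Its ratio was 24.9 in replicate 1 (10.0 to 54.5) and 45.1 in replicate 2 (26.3 to 79.9). In both libraries the intervals of the levels in the 2 cell classes did not overlap for either hydroxylase. The share of all genes for which this holds was not computed.

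Both reductase genes were higher in SlASFT-positive cells as well. SlFAR3A had 26.0 CPM (41 UMIs) and 60.9 CPM (207 UMIs) in SlASFT-positive cells of replicates 1 and 2, against 0.0904 CPM (16 UMIs) and 0.177 CPM (13 UMIs) in SlASFT-negative cells. Its ratio was 287 in replicate 1 (158 to 549) and 343 in replicate 2 (196 to 655). The other reductase gene, Solyc11g067180, had 6.34 CPM (10 UMIs) and 15.3 CPM (52 UMIs) in SlASFT-positive cells, against 0.00565 CPM (1 UMI) and 0.0683 CPM (5 UMIs) in SlASFT-negative cells. The single UMI in SlASFT-negative cells of replicate 1 leaves its ratio of 1121 there very wide (interval 160 to 48670), while replicate 2 gave 224 (90.1 to 719). For the reductases, too, the intervals of the levels in the 2 cell classes did not overlap in either library, again without a share over all genes.

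Sums of UMIs per library and cell class were then compared with edgeR's quasi-likelihood test, with library as a block. All 4 genes were called higher in SlASFT-positive cells at an adjusted p of 0.05 (Benjamini-Hochberg). The calls stand beside 1005 of 17937 tested genes, or 5.6%, called higher and 687, or 3.83%, called lower. The log2 fold change was 9.13 ± 0.37 (SE) for SlCYP86B1 (edgeR adjusted p = 2.16e-132), 8.38 ± 0.84 for Solyc11g067180 (edgeR adjusted p = 2.79e-21), 8.25 ± 0.34 for SlFAR3A (edgeR adjusted p = 3.72e-123) and 5.10 ± 0.68 for SlCYP86A (edgeR adjusted p = 2.9e-12). Without the replicate block only 99 genes, or 0.552%, were called higher and 0 lower (248 lower genes at an unadjusted p under 0.05, and 149 called lower by DESeq2's Wald test with the block). The 4 genes were still called in that fit, with edgeR adjusted p from 0.0149 for SlFAR3A to 0.0431 for Solyc11g067180, so the much smaller p-values above rest on the block.

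Between the libraries, the levels in SlASFT-positive cells were 2.34 to 2.63 times higher in replicate 2 than in replicate 1 for each of the 4 genes, while SlASFT itself, at 636 and 1004 CPM, was 1.58 times higher. SlASFT UMIs define these cells, so its level there is no yardstick for the 4 genes. Over all cells SlASFT was 7.92 times higher in replicate 2, and the 4 genes were 3.44 to 12.1 times higher. Over the libraries the level in SlASFT-positive cells averaged 43.7 ± 27.7 CPM for SlCYP86B1, 43.4 ± 24.7 CPM for SlFAR3A, 10.8 ± 6.33 CPM for Solyc11g067180 and 9.01 ± 5.57 CPM for SlCYP86A (SD, n = 2). The first pair in this order had overlapping intervals in both libraries, and so did the last pair. Each gene of the first pair lay above each gene of the last pair with no overlap of intervals in either library. By these counts, one gene of each family thus had a level in SlASFT-positive cells several times that of its relative. Whether the 3′ ends of the 4 genes are counted equally well was not tested.

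The mix of the 4 transcripts in each library lay within the intervals of the other, even though the levels differed. Of the UMIs of the 4 genes in SlASFT-positive cells (97 in replicate 1 and 518 in replicate 2), SlCYP86B1 made up 39.2% (29.4% to 49.6%) and 41.5% (37.2% to 45.9%). SlFAR3A made up 42.3% and 40.0%, Solyc11g067180 made up 10.3% and 10.0%, and SlCYP86A made up 8.25% and 8.49%. SlASFT-negative cells held another mix. There SlCYP86A was the most frequent of the 4, with 61.0% of 59 UMIs in replicate 1 (47.4% to 73.5%) and 43.8% of 48 UMIs in replicate 2 (29.5% to 58.8%). The intervals treat UMIs as independent, yet some came from few cells: 1 cell of replicate 2 held 24 UMIs of SlFAR3A, and 5 cells held 43.9% of the SlFAR3A UMIs of replicate 1.

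**Figure D1:**
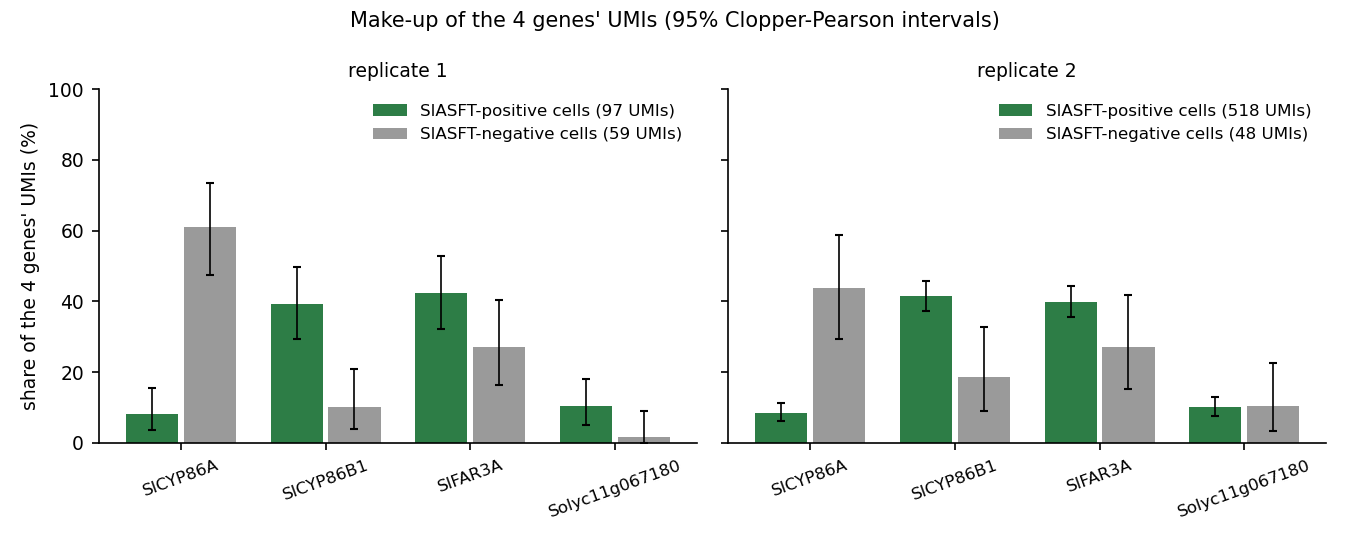
Share of the 4 genes' UMIs that belonged to each gene (y axis, %), by replicate, in SlASFT-positive cells (green, left bar) and SlASFT-negative cells (grey, right bar), with exact 95% intervals. SlCYP86A held 8.25% and 8.49% of the UMIs in SlASFT-positive cells of replicates 1 and 2, against 61.0% and 43.8% in SlASFT-negative cells.

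Most cells of either class showed none of the 4 transcripts. In SlASFT-positive cells, an SlCYP86B1 UMI was found in 30 of 171 cells of replicate 1, or 17.5% (12.2% to 24.1%), and in 88 of 460 cells of replicate 2, or 19.1% (15.6% to 23.0%), against 0.0491% and 0.0921% of SlASFT-negative cells. The intervals of the 2 libraries overlap. The shares for SlFAR3A were 11.1% (6.82% to 16.8%) and 15.2% (12.1% to 18.8%), against 0.131% and 0.133%. SlCYP86A was found in 4.68% (2.04% to 9.01%) and 7.61% (5.36% to 10.4%) of SlASFT-positive cells, against 0.294% and 0.215%, and Solyc11g067180 in 4.09% (1.66% to 8.25%) and 6.74% (4.62% to 9.43%), against 0.00818% and 0.0512%. At least 1 of the 4 genes was detected in 40 SlASFT-positive cells of replicate 1, or 23.4% (17.3% to 30.5%), and in 137 of replicate 2, or 29.8% (25.6% to 34.2%), against 0.482% and 0.491% of SlASFT-negative cells.

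To set aside depth, each cell was thinned to 2000 UMIs, which left out 2353 shallower cells of replicate 1 and 3399 of replicate 2, among them 66 of the 171 and 188 of the 460 SlASFT-positive cells. Of the cells that still had an SlASFT UMI (53 and 157), 26.4% (15.3% to 40.3%) and 30.6% (23.5% to 38.4%) had a UMI of at least 1 of the 4 genes, against 0.0800% and 0.105% of cells without. SlCYP86B1 was found in 18.9% of these SlASFT-positive cells in replicate 1 and in 18.5% in replicate 2, against 0.0200% and 0.0150% of SlASFT-negative cells. At equal depth the gap between the classes was therefore present in both libraries. The share of SlFAR3A was 5.66% in replicate 1 (1.18% to 15.7%) and 15.3% in replicate 2 (10.1% to 21.9%), and these intervals overlap.

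Detection and levels were next read along the number of SlASFT UMIs in a cell, from 0 through 1, 2 to 4 and 5 to 9 to 10 or more. Cells with 10 or more carried the 4 genes most often. An SlCYP86B1 UMI was found in 65.4% of the 26 such cells of replicate 1 (44.3% to 82.8%) and in 61.6% of the 86 such cells of replicate 2 (50.5% to 71.9%). SlFAR3A was found in 46.2% and 45.4% of them, SlCYP86A in 26.9% and 26.7%, and Solyc11g067180 in 19.2% and 25.6%. The intervals of these shares overlap between the libraries for each of the 4 genes. The levels did not for all of them: in this class SlCYP86B1 had 83.5 CPM in replicate 1 (52.3 to 126) and 245 CPM in replicate 2 (209 to 285), and SlFAR3A had 129 CPM (89.4 to 180) and 257 CPM (220 to 298).

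Cells with a single SlASFT UMI stood near the other end. Of 101 such cells in replicate 1, 1 had a UMI of the 4 genes, or 0.990% (0.0251% to 5.39%), and of 214 in replicate 2, 9 did, or 4.21% (1.94% to 7.83%). Neither SlCYP86A nor Solyc11g067180 was detected in the 101 cells of replicate 1, where 3 UMIs would have made 2.88 CPM. With 2 to 4 SlASFT UMIs the share with any of the 4 genes was 37.0% of 27 cells and 29.4% of 109 cells, with 5 to 9 it was 41.2% of 17 cells and 51.0% of 51 cells, and with 10 or more it was 84.6% and 81.4%. Depth differed between the classes without following their order. From 0 upward, the median was 8143, 3136, 1654, 4081 and 6070 UMIs in replicate 1 and 3837, 4167, 1343, 1219 and 4963 UMIs in replicate 2. Levels per 1000000 UMIs take depth into account. For SlCYP86B1 in replicate 2 the level was 0.123, 4.48, 40.2, 125 and 245 CPM in the 5 classes from 0 upward, while in replicate 1 it was 0.0339, 0.958, 73.4, 37.1 and 83.5 CPM, with wide intervals in the middle classes.

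**Figure D2:**
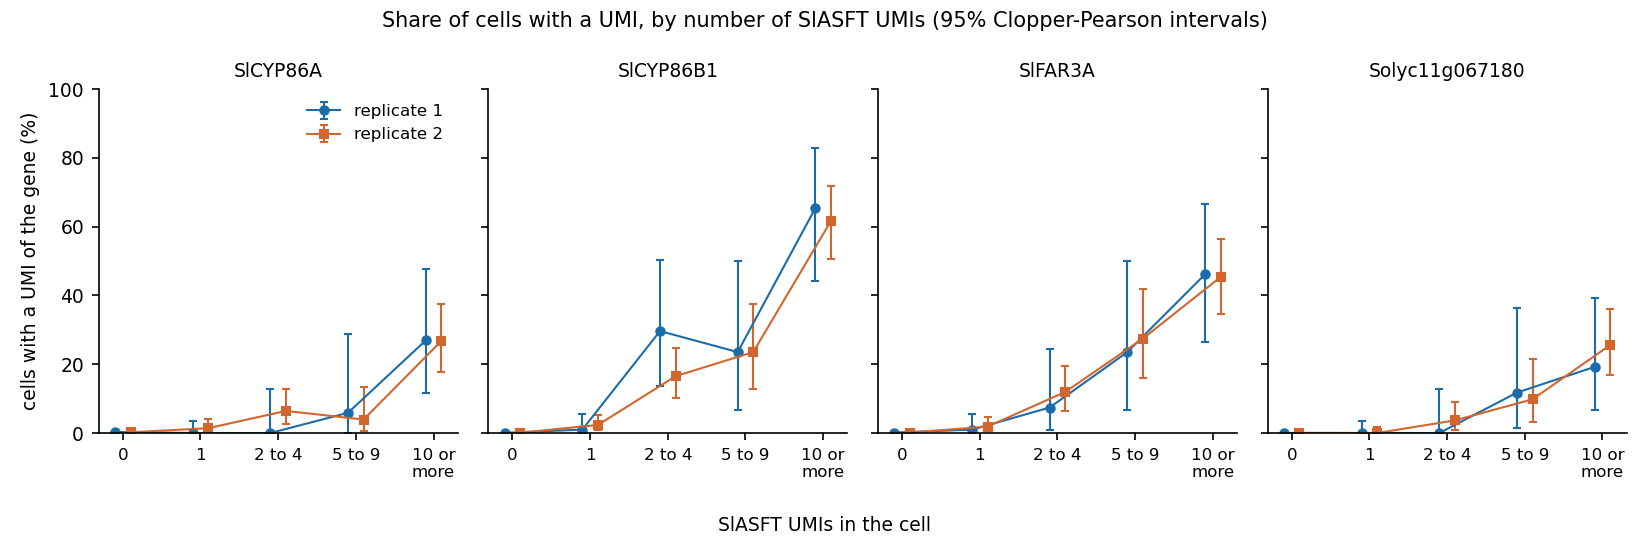
Share of cells with a UMI of each gene (y axis, %) against the number of SlASFT UMIs in the cell (x axis, 5 classes), for replicate 1 (blue circles) and replicate 2 (orange squares), with exact 95% intervals. For SlCYP86B1 the share reached 65.4% and 61.6% in cells with 10 or more SlASFT UMIs of replicates 1 and 2.

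The 4 genes were also looked for in the same cells. In SlASFT-positive cells, 18 of 171 in replicate 1, or 10.5% (6.36% to 16.1%), and 61 of 460 in replicate 2, or 13.3% (10.3% to 16.7%), held at least 2 of the 4. No SlASFT-negative cell did, of 12232 in replicate 1 and of 9771 in replicate 2, where 3 cells would make 0.0245% and 0.0307% and the exact upper limits are 0.0302% and 0.0378%. Only 59 and 48 SlASFT-negative cells held any of the 4 genes. With so few, hardly any cell with 2 genes would be seen even if they were detected independently, so this 0 says little about co-detection there. All 4 were found together in 1 cell of replicate 1 and in 3 cells of replicate 2. Of SlASFT-positive cells with any of the 4, 45.0% and 44.5% had at least 2, so nearly the same share of detecting cells in either library carried more than 1.

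SlASFT counts were higher in cells in which more of the 4 genes were detected. The median was 1 SlASFT UMI in SlASFT-positive cells with none of the 4 in both libraries. It was 5 and 6 UMIs in cells with 1 of the 4, 11 and 15.5 UMIs in cells with 2, and 32 UMIs in both libraries in cells with 3 or 4, of which there were 5 in replicate 1 and 23 in replicate 2. The cells with 3 or 4 were also deep, with a median of 12876 and 6567 UMIs, against 3136 and 2916 in SlASFT-positive cells with none. Cells in between were shallower than those with none, with medians of 2245 and 2201 UMIs for 1 gene and 2431 and 1982 UMIs for 2. The part of depth in this order was not tested.

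Among the 6 pairs, SlCYP86B1 with SlFAR3A, 1 gene of each family, was found most often, in 12 cells of replicate 1 and 42 of replicate 2. Of the SlASFT-positive cells with SlFAR3A, 63.2% of 19 (38.4% to 83.7%) and 60.0% of 70 (47.6% to 71.5%) also had SlCYP86B1. Of those with SlCYP86B1, 40.0% of 30 and 47.7% of 88 also had SlFAR3A. The 2 hydroxylases were found together in 6 and 19 cells, and the 2 reductases in 4 and 16 cells. Of the SlASFT-positive cells with SlCYP86A, 75.0% of 8 (34.9% to 96.8%) and 54.3% of 35 (36.7% to 71.2%) also had SlCYP86B1. Pairs within a family and pairs across families were thus both present, and with these counts their shares cannot be ranked apart from the level of each gene.

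**Figure D3:**
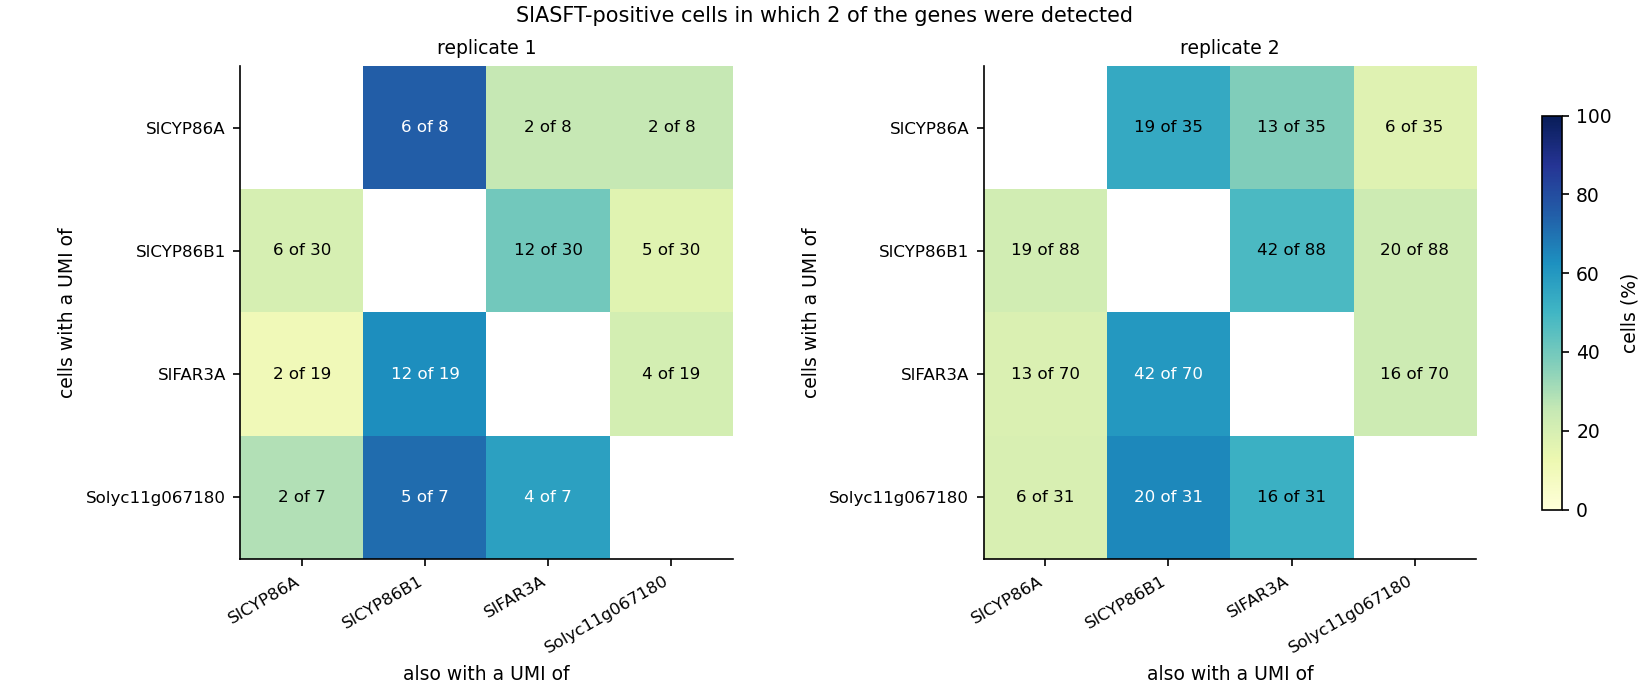
For SlASFT-positive cells with a UMI of the gene in the row, the share that also had a UMI of the gene in the column (colour, %), with the counts written in each field, for replicate 1 (left) and replicate 2 (right). SlCYP86B1 was the partner found most often, for example in 12 of 19 and 42 of 70 cells with SlFAR3A.

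Clusters gave a view that does not rest on SlASFT. Cells were clustered without the 4 genes, SlASFT, the suberin pathway list, the study's co-expression module and the exodermis markers, which gave 30 clusters, 26 of them with at least 10 cells in each library. Over the 20 exodermis markers, cluster 25 had the highest mean score, and it was the peak of 17 of them. It held 79 cells of replicate 1 and 297 of replicate 2. It is called the exodermis-marker cluster here and given no cell type name, since its median depth in replicate 1, 2308 UMIs, was only 0.286 of that library's median (1519 UMIs and 0.400 in replicate 2). Of its 10 leading genes by fold, 9 belonged to the study's co-expression module and 1 was an exodermis marker. The count tables carry no descriptions, so the other clusters keep their numbers.

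All 4 genes had their highest level in this cluster, in both libraries. SlCYP86B1 had 95.9 CPM there in replicate 1 (64.7 to 136.9) and 224 CPM in replicate 2 (194 to 257), against 0.0786 and 0.330 CPM in all other cells. SlFAR3A had 112 CPM (77.9 to 156) and 223 CPM (193 to 256), against 0.123 and 0.290 CPM. Solyc11g067180 had 28.8 and 58.5 CPM, against 0.0112 and 0.0660 CPM, and SlCYP86A had 25.6 and 43.9 CPM, against 0.202 and 0.343 CPM. Among the other 25 clusters, the next highest reached at most 2.21 CPM for any of the 4 genes, on 1 to 3 UMIs. The share of cells with an SlCYP86B1 UMI was 31.7% and 25.9% in the cluster, against at most 0.943% and 2.16% in any of the 25 others, in clusters with medians of 14929 and 8246 UMIs. For SlFAR3A the shares were 19.0% and 21.9%, against at most 0.933% and 1.62%.

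**Figure D4:**
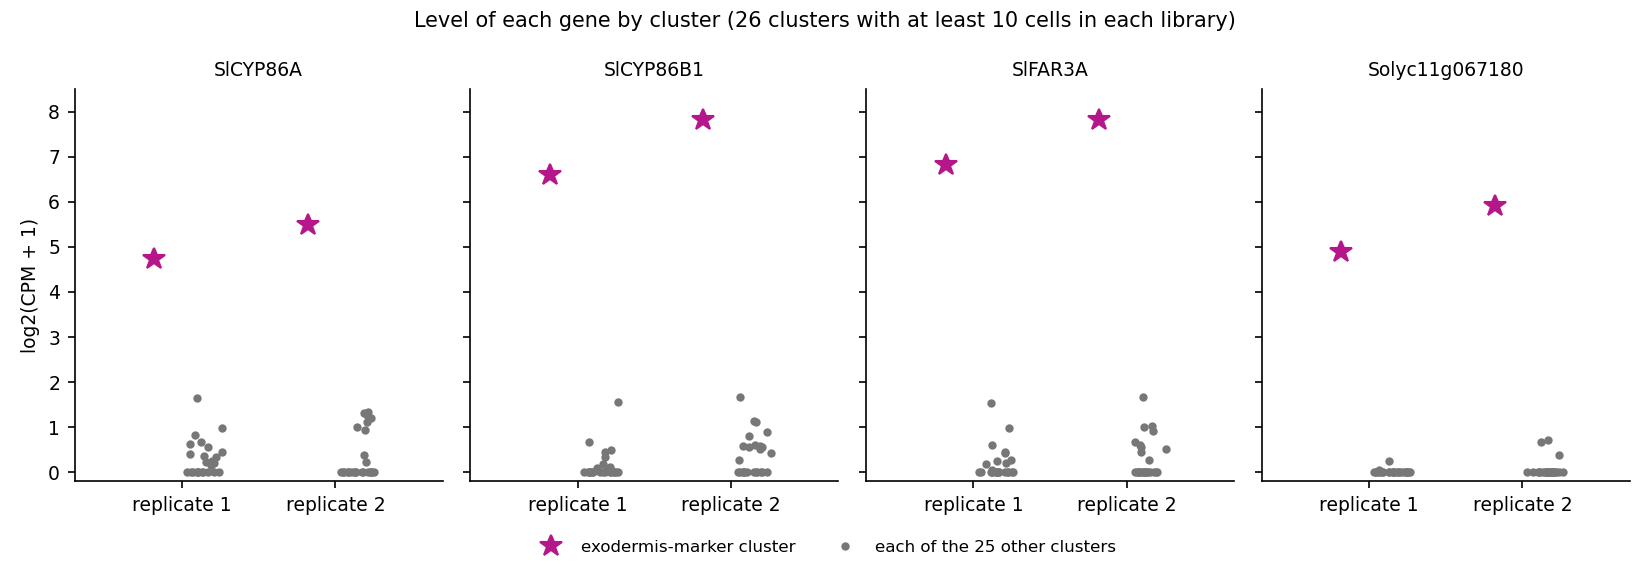
Level of each gene as log2(CPM + 1) (y axis) in the exodermis-marker cluster (stars) and in each of the 25 other clusters with at least 10 cells per library (grey points, spread sideways for sight), by replicate. The stars of the 4 genes lie above all other clusters in both libraries, with SlCYP86B1 at 95.9 and 224 CPM.

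Except for SlCYP86A in replicate 1, the cluster held most but not all of the transcripts of each gene. In replicate 2 it held 91.2% of the UMIs of Solyc11g067180 (80.7% to 97.1%), 90.0% of those of SlFAR3A (85.3% to 93.6%), 88.8% of those of SlCYP86B1 (84.0% to 92.7%) and 60.0% of those of SlCYP86A (47.1% to 72.0%). In replicate 1 the shares were lower, at 81.8% (48.2% to 97.7%), 61.4% (47.6% to 74.0%), 68.2% (52.4% to 81.4%) and 18.2% (8.19% to 32.7%) in the same order of genes. SlCYP86A had the smallest share of the 4 genes, with no overlap of its interval with the others in either library. Its UMIs outside the cluster, 36 in replicate 1 and 26 in replicate 2, lay in 14 and 11 other clusters, with at most 6 and 5 UMIs in any of them. When replicate 1 was clustered alone, the cluster with the highest marker score held 442 cells, of which 12.4% were SlASFT-positive, and SlCYP86B1 had 7.26 CPM in it, so the level of 95.9 CPM in that library rests on clustering both libraries together.

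SlASFT and the cluster were then crossed. In SlASFT-positive cells inside the cluster (55 cells of replicate 1 and 223 of replicate 2), SlCYP86B1 had 134 and 286 CPM, SlFAR3A 157 and 283 CPM, Solyc11g067180 40.3 and 75.1 CPM, and SlCYP86A 35.8 and 56.3 CPM. In SlASFT-positive cells outside it (116 and 237 cells), SlCYP86B1 had 5.91 and 6.28 CPM and SlFAR3A 4.43 and 4.06 CPM. SlCYP86A had 0 UMIs there in replicate 1, where 3 UMIs would have made 2.22 CPM, and 1.85 CPM in replicate 2. These outside cells were deeper, with a median of 4340 and 5501 UMIs, against 2182 and 1593 UMIs in SlASFT-positive cells inside. The level of SlCYP86B1 in SlASFT-positive cells was thus 22.7 and 45.6 times higher inside the cluster than outside it, and that of SlFAR3A 35.4 and 69.7 times.

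In SlASFT-negative cells inside the cluster (24 and 74 cells), 0 UMIs of the 4 genes were found in replicate 1, and 1 UMI of SlCYP86B1 and 2 of SlFAR3A in replicate 2. With so few cells, 3 UMIs would have made 33.5 and 15.3 CPM in the 2 libraries. The intervals of replicate 2 for SlCYP86B1 (0.129 to 28.4 CPM) and for SlFAR3A (1.24 to 36.8 CPM) end below those of SlASFT-positive cells inside the cluster (248 to 329 CPM and 245 to 326 CPM). How many other genes show such a gap was not computed.

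**Figure D5:**
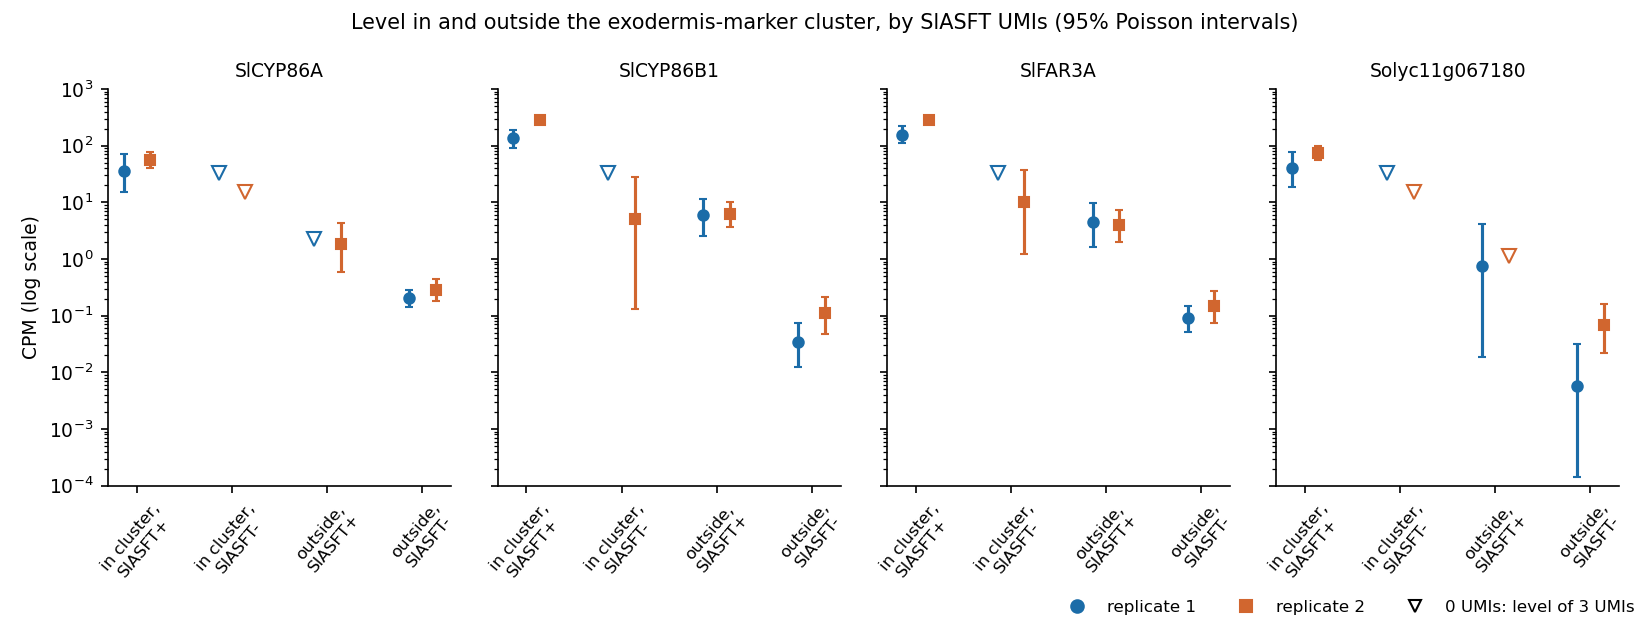
Level of each gene (y axis, CPM, log scale) in SlASFT-positive and SlASFT-negative cells in the exodermis-marker cluster and outside it (x axis), for replicate 1 (blue circles) and replicate 2 (orange squares), with exact 95% Poisson intervals. Open triangles mark classes with 0 UMIs, drawn at the level 3 UMIs would make, and SlCYP86B1 had 134 and 286 CPM in SlASFT-positive cells in the cluster.

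The SlASFT-negative cells with a transcript of the 4 genes were described next. A UMI of the 4 genes was found in 59 and 48 SlASFT-negative cells of replicates 1 and 2, each cell with a single gene. They were deep, with a median of 21421 and 7118 UMIs, against 8096 and 3828 UMIs in SlASFT-negative cells with none. They lay in 21 and 16 clusters, and 0 and 3 of them in the exodermis-marker cluster. Their summed exodermis markers were at 469 and 1319 CPM, against 530 and 725 CPM in SlASFT-negative cells with none, so the sum was higher in replicate 2 only. Per cell the median was 7 and 3 marker UMIs, against 3 and 2 in cells with none, at the greater depths given above. Whether a few cells carried the sum of replicate 2 was not tested. The 36 and 21 SlASFT-negative cells with SlCYP86A had medians of 22839 and 10799 UMIs.

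The ratio of each gene to SlASFT was compared inside and outside the cluster. The part of free RNA, which can give a UMI to any droplet, in the transcripts outside was not tested. SlCYP86A had 0.994 UMIs per 100 SlASFT UMIs inside in replicate 1 (0.428 to 1.97) and 1.33 in replicate 2 (0.945 to 1.82), against 18.1 (12.3 to 25.9) and 5.36 (3.47 to 7.95) outside. Its ratio was higher outside in both libraries, with no overlap of intervals. SlCYP86B1 had 3.73 inside (2.50 to 5.36) and 6.79 (5.85 to 7.84), against 7.04 (3.78 to 12.1) and 5.16 (3.30 to 7.70) outside, and these intervals overlap in both libraries. SlFAR3A had 4.35 and 6.76 inside, against 11.1 and 4.54 outside, with no overlap in replicate 1 (3.01 to 6.10 inside against 6.77 to 17.2 outside) and overlap in replicate 2. Solyc11g067180 had 1.12 and 1.78 inside, against 1.01 and 1.03 outside, and its intervals overlap in both libraries.

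The rest of the pathway gives the setting of these 4 genes. A list of 20 other suberin genes of the study, from chain elongation to transport and regulation, was compared in the same test. Low counts took 1 of these out of the test, and each of the 19 others was called higher in SlASFT-positive cells (5.6% of all tested genes were), with a median log2 fold change of 6.96, against a median of -0.05 over all genes. The study chose this list partly on these libraries. Without the replicate block, 9 of the 19 were called higher, beside 0.552% of all genes. The 4 hydroxylase and reductase genes had a median of 8.31.

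The 5 highest log2 fold changes of this list and of a list of other P450 genes were spread over several steps of the pathway. They belonged to Solyc06g076800, a P450 outside the CYP86 pair and itself an exodermis marker (8.86 ± 0.24), SlMYB92, a MYB transcription factor (8.75 ± 1.14), Solyc02g090210, a GDSL esterase/lipase and exodermis marker (8.63 ± 0.23), the lipid transfer protein gene Solyc09g065420 (8.61 ± 0.13) and the elongation gene Solyc10g009240 (8.48 ± 0.18). The log2 fold change of SlCYP86B1, at 9.13 ± 0.37, exceeded that of Solyc06g076800 by less than its own SE and that of SlMYB92 by less than the SE of SlMYB92. SlMYB92 rested on 3 and 31 UMIs in SlASFT-positive cells of replicates 1 and 2, against 2 and 0 UMIs in SlASFT-negative cells. Solyc09g065420 was far more abundant than the 4 genes, at 1093 and 868 CPM in SlASFT-positive cells, against 1.50 and 3.96 CPM in SlASFT-negative cells.

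The smallest changes that passed the test belonged to the elongation gene Solyc04g014370 (0.90 ± 0.10), the GDSL esterase/lipase gene and exodermis marker Solyc06g065530 (1.91 ± 0.15) and SlMYB41 (2.33 ± 0.40). Solyc04g014370 was present in both classes, with 159 and 232 CPM in SlASFT-positive cells, against 104 and 102 CPM in SlASFT-negative cells. SlMYB41 had 7.61 and 15.3 CPM in SlASFT-positive cells, against 1.15 and 3.47 CPM. Without the replicate block these 3 genes and Solyc10g009240 were no longer called (edgeR adjusted p from 0.0963 to 0.529). SlMYB63, with 0 UMIs in SlASFT-positive cells and 4 and 7 UMIs in SlASFT-negative cells, did not pass the filter.

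Other P450 genes of the study's module and exodermis markers did not move as one. Of the 6 on the list, 5 were in the files and tested, 4 were called higher and 1 was not, beside 5.6% of all tested genes called higher, with a median log2 fold change of 4.07. Without the replicate block 2 of the 5 were called higher, beside 0.552% of all genes. The one not called, Solyc07g062500, had 62.1 and 115 CPM in SlASFT-positive cells, against 56.3 and 91.9 CPM in SlASFT-negative cells (0.23 ± 0.12, edgeR adjusted p = 0.296). When only cells with at least 2 SlASFT UMIs were taken as SlASFT-positive, all 5 were called, beside 6.82% of all genes. The CYP86 genes thus lay at 5.10 and 9.13, within and above the 0.23 to 8.86 of the other P450 genes.

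Likeness between genes was measured over the 52 sums of the 26 clusters in the 2 libraries, as Pearson's r of log2(CPM + 5), among 18792 genes with at least 10 UMIs in each library. The points share libraries and depth, and the 2 sums of the exodermis-marker cluster lay far above all others for the 4 genes, so each r is given as a description. SlCYP86B1 and SlFAR3A were closest to each other, with an r of 0.995. Solyc11g067180 had an r of 0.990 with both of them, and SlCYP86A had 0.973, 0.965 and 0.977 with SlCYP86B1, SlFAR3A and Solyc11g067180. With SlASFT itself the r was lower, from 0.876 for SlCYP86A to 0.903 for SlCYP86B1. Outside the exodermis-marker cluster the 4 genes stayed at or below 2.21 CPM, where the 5 CPM added flattens differences. SlASFT reached 58.7 CPM there, in cluster 11 of replicate 2. The part of this in the lower r was not tested. Outside the 4 genes, the 2 that came up among the 3 nearest for each of them were Solyc09g082290 and Solyc05g052360, both members of the study's module with no name in the count tables. Solyc09g082290 had 28.8 and 59.7 CPM in the exodermis-marker cluster, against 0.0112 and 0.119 CPM in all other cells, and an r of 0.968 to 0.996 with the 4 genes.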

How the data were processed

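Droplet 3′ libraries of protoplasts from 2 pools of wild-type M82 roots were measured. The authors deposited raw UMI counts per gene and cell barcode, made with cellranger 6.0.1 and, per the study's methods, aligned to the tomato genome, and no normalization was applied to them. Barcodes had been called as cells before deposit. No column was left unmapped to a sample.

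The 4 genes, the gene lists and the tests were chosen with earlier results of these data known. Cells with fewer than 500 UMIs or over 1% organelle UMIs were removed, and of the genes, those of organelles, those found in at most 3 cells and 820 of the 821 that the study lists as induced by protoplasting were dropped, which left 21682. These filters left more cells than the study states. Doublets were kept, and leaving out the top 5% of cells by UMIs stands in for a doublet filter. Clustering used 2000 variable genes, 35 principal components, 20 neighbours and the Leiden method at resolution 1 (leidenalg 0.10.2, igraph 0.11.9, Python 3.11.15). Cluster labels of the study were not used, so differences from it may come from rebuilt clusters.

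Cells are not replicates, so counts were summed per library and cell class (at least 1 SlASFT UMI, or none) and tested with edgeR 4.0.16 (TMM, filterByExpr, glmQLFTest, library as a block because both sums of a library come from the same suspension). SlASFT splits the cells and was left out of the counts of calls. Standard errors were derived from the log2 fold change and the F statistic of each gene. The script was checked on simulated data. Alternatives were other SlASFT limits, DESeq2's size factors, the Wald test of DESeq2 1.42.0, other filters on genes and cells, no replicate block, thinning to 2000 UMIs, other clusterings and each library left out, and leaving out barcodes shared by both libraries was added after seeing the data. Beside the 4 genes and SlASFT, the genes named were the 5 highest and 3 lowest log2 fold changes among called genes of the suberin and P450 lists with the same direction in both libraries, the MYB genes, and the genes with the most similar pattern over clusters, of which the 2 shared by all 4 genes are printed. Solyc07g062500 was named after its values were seen. Gene descriptions, genome coordinates and promoters were not used here, so families and cell types defined by description, and promoter motifs, were not analysed.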

Additional observations from a re-analysis of the deposited data

How the results depend on the processing

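The 4 genes were called higher in SlASFT-positive cells under each of the 12 other fits, with log2 fold changes from 5.02 to 10.6. With at least 3 SlASFT UMIs 1096 genes were called lower, against 687. The count of genes called higher was 631 with DESeq2's Wald test, 597 with cells thinned to 2000 UMIs and 99 with no replicate block, against 1005, and the count called lower was 149 with DESeq2's Wald test and 0 with no replicate block. With DESeq2's Wald test the share of higher among all calls was 80.9%, against 59.4%. Leaving out the barcodes shared by both libraries gave 1009 higher and 693 lower genes. The libraries belong to 1 group, so the replicate number pairs only sums of the same suspension.

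Stricter limits on SlASFT raised the mean shares of SlASFT-positive cells with a UMI. With at least 2 and at least 3 SlASFT UMIs they were 12.2% and 14.6% for SlCYP86A, 37.6% and 40.8% for SlCYP86B1, 26.3% and 30.5% for SlFAR3A, 11.3% and 13.9% for Solyc11g067180, 53.9% and 59.0% for any of the 4 genes, and 23.9% and 29.0% for at least 2 of them. The cells with 1 SlASFT UMI, left out there, had few UMIs of the 4 genes.

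With 1 library left out no test can be made. The log2 ratio of CPM with 0.5 added was 2.99 and 4.09 for SlCYP86A, 5.52 and 6.68 for SlCYP86B1, 5.49 and 6.50 for SlFAR3A, and 3.76 and 4.80 for Solyc11g067180. Shares of cells ranged from 4.68% to 7.61% for SlCYP86A, 17.5% to 19.1% for SlCYP86B1, 11.1% to 15.2% for SlFAR3A, 4.09% to 6.74% for Solyc11g067180, 23.4% to 29.8% for any of the 4 and 10.5% to 13.3% for at least 2. When a single library was clustered, the cluster with the highest marker score held 20.5% to 61.5% of the UMIs of SlCYP86A and 63.6% to 89.7% of those of SlCYP86B1. It held 54.4% to 90.9% of those of SlFAR3A and 81.8% to 91.2% of those of Solyc11g067180. For replicate 1 alone that cluster was the broad one of 442 cells, 12.4% of them SlASFT-positive, so these ranges do not describe 1 and the same cluster. The other clusterings moved the shares of the exodermis-marker cluster by less than the spread between libraries.

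Depth limits what the zeros say: with 11 to 57 UMIs per library, Solyc11g067180 rests on 8 and 36 cells, and a cell without a UMI of a gene may still express it.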
